A study of Mus musculus with 18 samples.

Results

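Remodelin given with Coll IV was compared with Coll IV alone in 6 of 18 RNA-seq libraries of mouse thalamus: replicates 4, 5 and 6 of the intervene group (Coll IV and remodelin) against replicates 4, 5 and 6 of the model group (Coll IV). The other 12 libraries are replicates 1 to 3 of these groups and 6 replicates of a control group given saline. The mice are labelled wild type in all 3 groups, and the labels used here state no strain, age, sex, dose or time after treatment and do not expand Coll IV. Remodelin is known to inhibit the acetyltransferase NAT10, and the title of the series names inflammation-related genes after thalamic haemorrhage. No label separates replicates 1 to 3 from replicates 4 to 6. That division was noticed in the expression values, above all in genes of brain regions, and Ccl2, Tlr2 and Shox2 were picked as genes that differed in this very comparison. The differences between intervene 4-6 and model 4-6 below are therefore a description of 6 libraries chosen with their values known. A gene is said to be called when its Benjamini-Hochberg adjusted p from edgeR's quasi-likelihood test over all genes tested was under 0.05. Calls are used to sort genes, and no p is given for Ccl2, Tlr2 and Shox2 in any comparison.

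The 6 libraries held 29083657 to 36361681 counts, and 17814 of 50559 genes passed the filter on low counts. Levels are CPM, counts scaled to a common library size, on 1 TMM scale for all 18 libraries, and values of 3 libraries are given in the order of replicates 4, 5 and 6. Before any result, the label thalamus needs a check in these libraries. Tcf7l2, a transcription factor of thalamic neurons, was at 8.01, 10.5 and 4.79 CPM in model 4-6 and at 48.5, 32.7 and 36.6 CPM in intervene 4-6. Its mean was 101 CPM in control 1-3 but 4.52 CPM in control 4-6. The summed level of 21 measured thalamic genes was 315 to 509 CPM in model 4-6 and 724 to 962 CPM in intervene 4-6. In control 1-3 that sum was 1060 to 1225 CPM. Model 4-6 was thus low in the defining genes of its labelled tissue, and intervene 4-6 lay between model 4-6 and control 1-3.

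The bleeding brain is known to pass from cell injury to a reaction of its resident glia. Damaged cells and blood products are sensed by Toll-like receptors, which act through the adaptor MyD88 on the transcription factor NF-kB. Microglia and astrocytes then release chemokines, small secreted proteins that draw in neutrophils and monocytes, while astrocytes raise intermediate filament and acute-phase genes. Haem from lysed red cells is broken down by haem oxygenase. The thalamus lies beside the habenula, the hypothalamus, the hippocampus and the ventricle with its choroid plexus, so the transcripts in a dissected piece also depend on which neighbours it holds. In bulk RNA, fewer cells of a type and less RNA per cell cannot be told apart.

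In intervene 4-6, 598 genes were called higher than in model 4-6 (3.36% of the genes tested) and 401 lower (2.25%), or 999 in either direction (5.61%). The median log2 fold change over all genes was 0.00, and 4100 genes had an unadjusted p under 0.05. Members of the inflammation and injury lists were called higher in 75 of 273 cases and lower in 1. Members of the region lists were called higher in 30 of 134 cases and lower in 0 by edgeR, while 8 were lower at an unadjusted p under 0.05, 5 by DESeq2 and 1 by limma-voom. In the lists of chemokines, Toll-like receptors, NF-kB, interferon, reactive astrocytes, reactive microglia, neutrophils, complement, thalamus, habenula, choroid plexus and ependyma no member was lower at an unadjusted p under 0.05 or by any of these tools, so only members called higher are counted for them below. Since these libraries were chosen on the same contrast, nothing is read from these shares. The counts leaned on single libraries. Without model replicate 4 they were 66 higher and 34 lower, without model replicate 5 they were 235 and 136, and without model replicate 6 they were 191 and 87. Without intervene replicate 4 they were 952 and 478, without intervene replicate 5 they were 256 and 134, and without intervene replicate 6 they were 411 and 314. Scaling moved their balance too: with library totals in place of TMM the counts were 391 higher and 518 lower. With limma on log2(FPKM + 1), which changes the test and the scale together, they were 251 higher and 324 lower.

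Saline libraries, which take no part in the comparison, were then used to sort both classes of genes. Control 4-6 differed from control 1-3 in 3024 genes called higher (16.9%) and 3372 called lower (18.8%) of 17916 tested, although the labels give both saline only. Of the 598 genes higher in intervene 4-6, 444 (74.2%, 95% Wilson interval 70.6 to 77.6%, which covers counting error only) were lower in control 4-6, against 18.2% of all genes tested; 125 were not called between the control sets, 26 were too low there to be tested and 3 were higher. Of the 401 genes lower in intervene 4-6, 359 (89.5%, interval 86.1 to 92.2%) were higher in control 4-6, against 16.8% of all genes tested. Among region genes, 29 of the 30 called members were also lower in control 4-6, and the exception was Spag17, a gene of motile cilia. Of all region members tested between the control sets, called here or not, 81 of 139 were lower in control 4-6. Among inflammation and injury genes, 24 of the 75 called members were lower in control 4-6, beside 44 of 255 of all members tested there. The remaining 51 called members were not called lower: 36 were not called between the control sets, 12 were not tested there and 3 were higher. The division of replicates was itself noticed partly in control libraries, so these shares are a description too.

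**Figure D1:**
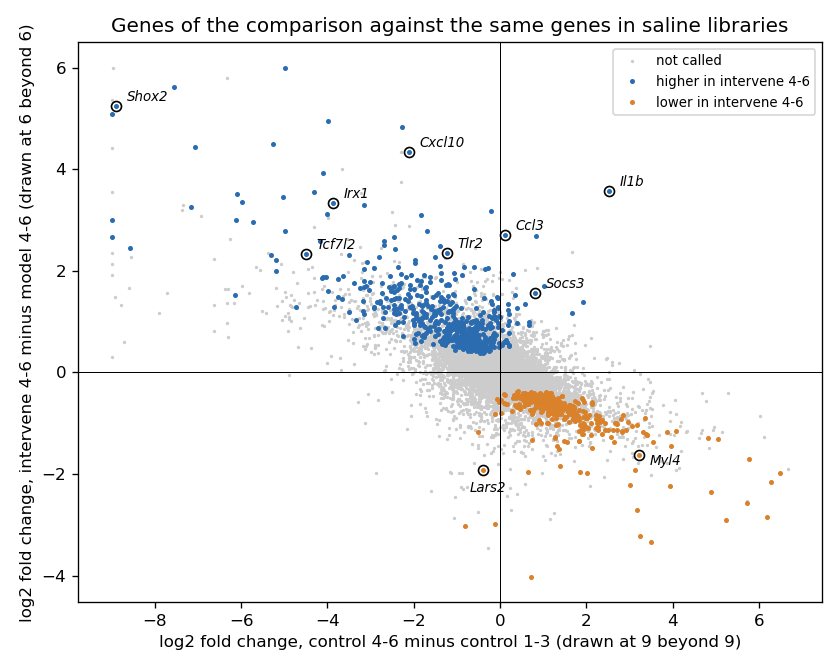
Each point is a gene, with the log2 fold change of control 4-6 against control 1-3 on the x axis and that of intervene 4-6 against model 4-6 on the y axis; genes without a control value are not drawn. Most genes called higher (blue) lie at the upper left with Shox2, Tcf7l2 and Irx1, most called lower (orange) lie at the lower right with Myl4, and Ccl3, Socs3 and Il1b lie high at or right of 0.

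The chemokine and cytokine list showed the difference in most of its members. Of its 17 measured genes, 14 were called higher, and in 17 of 17 all 3 intervene libraries lay above all 3 model libraries (14.6% of all genes tested did so). The median log2 fold change was 2.70, against 0.00 over all genes. Of the 17 genes, 14 were higher in each of intervene 4-6 than in any of the 15 other libraries of the series. The summed level was 23.7 to 36.5 CPM in model 4-6 and 86.4 to 130.0 CPM in intervene 4-6.

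Ccl2 encodes the chemokine that recruits monocytes through the receptor CCR2. It was at 0.726, 0.178 and 0.909 CPM in model 4-6 and at 8.14, 5.84 and 5.43 CPM in intervene 4-6. The groups did not overlap, and the lowest intervene library was well above the highest model library. The log2 fold change was 3.43 ± 0.44 (SE, n = 3 and 3). Outside these 6 libraries Ccl2 stayed low, with means of 0.0843, 0.106 and 0.359 CPM in control, model and intervene 1-3 and 0.0579 CPM in control 4-6.

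Ccl3 and Ccl4, chemokines made by activated microglia, followed the same order. Ccl3 was at 0.894, 0.978 and 0.595 CPM in model 4-6 and at 5.57, 3.39 and 7.21 CPM in intervene 4-6 (log2 fold change 2.70 ± 0.33, adjusted p = 0.00436). Ccl4 was at 0.503, 0.444 and 0.979 CPM against 6.68, 2.65 and 4.65 CPM (2.88 ± 0.42, adjusted p = 0.00821). In both, intervene replicate 5 was the lowest of its group and still above all model libraries.

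Cxcl10, an interferon-induced chemokine that draws in T cells, varied within both groups. It was at 0.391, 0.296 and 1.61 CPM in model 4-6 and at 22.8, 7.21 and 15 CPM in intervene 4-6. The log2 fold change was 4.34 ± 0.73 (adjusted p = 0.0309). Without model replicate 4, model replicate 5 or intervene replicate 6 its adjusted p was 0.138, 0.0827 or 0.0800.

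The neutrophil attractants Cxcl1 and Cxcl2 were low in model 4-6, and Cxcl2 was close to absent there. Cxcl2 had 4 counts in all 3 model libraries together and stood at 1.42, 2.52 and 0.547 CPM in intervene 4-6, so its fold depends on the prior count and is not given. Cxcl1, named after its values were seen, was at 0.223, 0.178 and 0.839 CPM in model 4-6 and at 8.30, 6.51 and 2.26 CPM in intervene 4-6 (log2 fold change 3.83 ± 0.68, adjusted p = 0.0241).

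Interleukin 1 and its antagonist appeared together. Il1b, which encodes the inflammatory cytokine interleukin 1 beta and was named after its values were seen, was at 0.391, 0.207 and 0.420 CPM in model 4-6 and at 6.51, 1.21 and 4.48 CPM in intervene 4-6 (log2 fold change 3.58 ± 0.62, adjusted p = 0.0205). It is 1 of 3 genes called higher here that were also higher in control 4-6 than in control 1-3. Il1rn, the receptor antagonist that blocks interleukin 1, had 10 counts in the 3 model libraries and was at 1.89, 1.41 and 3.42 CPM in intervene 4-6.

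Csf1, a growth factor of microglia and macrophages, had the smallest difference of the list members named: 11.4, 12.7 and 14.8 CPM in model 4-6 and 30.1, 23.8 and 21.7 CPM in intervene 4-6 (log2 fold change 0.97 ± 0.16, adjusted p = 0.0123). Cxcl16, a membrane-bound chemokine, was at 1.42, 0.800 and 1.36 CPM against 3.21, 3.46 and 5.13 CPM (1.72 ± 0.31, adjusted p = 0.0166). These 2, of 9 list members tested there, were lower in control 4-6 than in control 1-3. The called members of the list numbered 2 without model replicate 4, 6 without model replicate 5, and 10 without model replicate 6 or intervene replicate 6. Ccl3 stayed called with each of the 6 libraries left out in turn. Ccl4, Csf1, Cxcl16, Cxcl2, Cxcl1, Il1b and Il1rn lost the call without model replicate 4, with adjusted p from 0.0531 to 0.121. Cxcl1, Il1b and Il1rn also lost it without model replicate 5 (0.0743, 0.0721 and 0.0650), Il1b without model replicate 6 (0.0718) and Cxcl1 without intervene replicate 5 (0.0653). With all 6 libraries, 12 members were called by limma-voom, where Il1b and Cxcl1 were not (0.101 and 0.0560), and 15 by DESeq2. By limma on log2(FPKM + 1), Il1b, Cxcl2 and Csf1 were not called (0.0804, 0.0625 and 0.0545). Cxcl1 was not called with the replicate block (0.0650), nor Cxcl10 with no filter (0.0826).

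**Figure D2:**
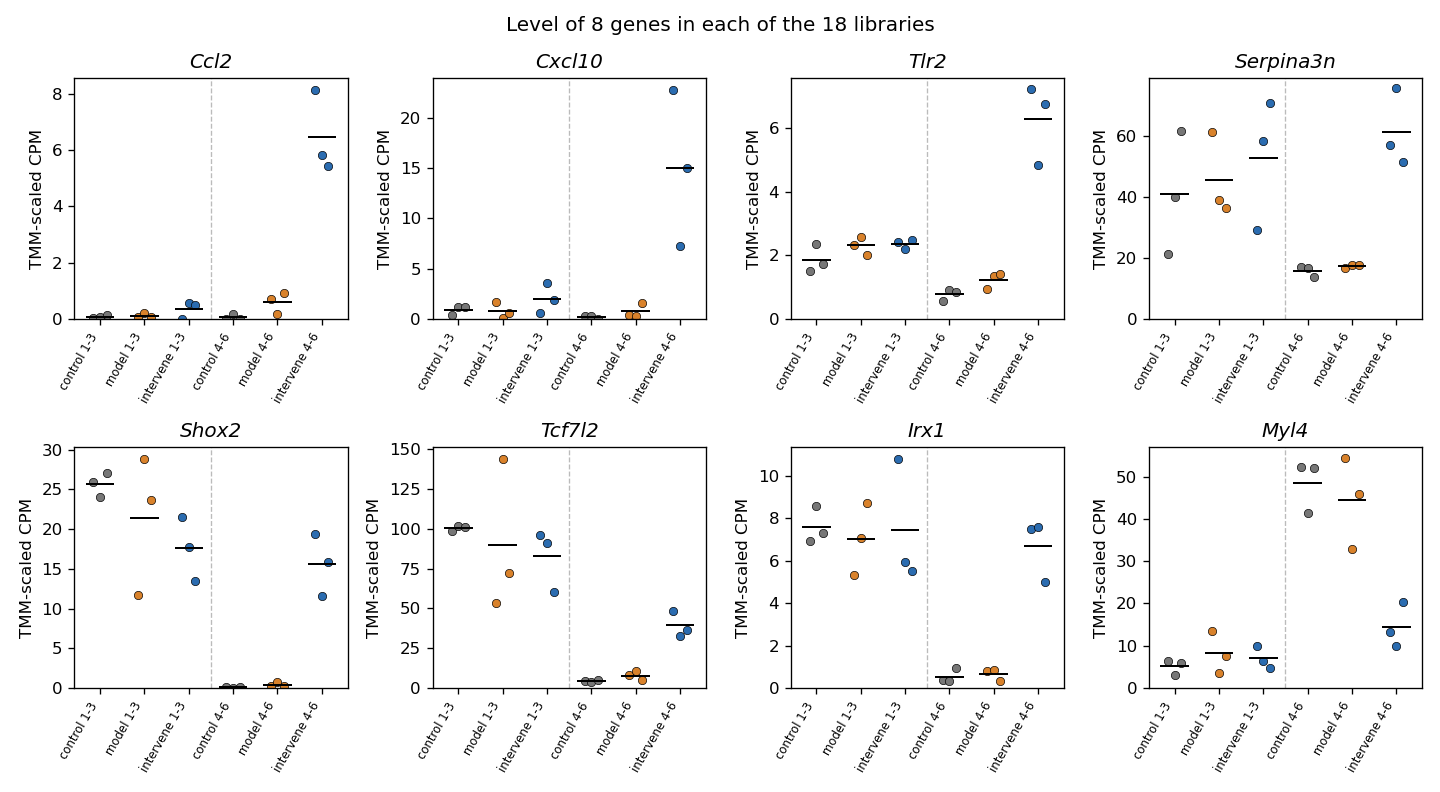
TMM-scaled CPM of 8 genes in all 18 libraries, 1 point per library with a bar at the mean of each 3, replicates 1-3 left and 4-6 right of the dashed line. Ccl2, Cxcl10 and Tlr2 are high only in intervene 4-6 among the 6 sets of 3; Serpina3n, Shox2, Tcf7l2 and Irx1 are low in control 4-6 and model 4-6 and Myl4 is high there.

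Promoter sequences of 3 chemokine genes are shown because NF-kB is known to drive these genes and their windows hold its letters; most promoters of the called chemokines and cytokines do not. The stretches are the 250 bases before the gene start, 5′ to 3′ on the gene's strand, from RefSeq on GRCm38.p6. Capitals mark matches, on either strand, to a pattern for each of 3 factors: for NF-kB, GGGA and TTCC with any 2 bases between them, for interferon regulatory factors (IRF), GAAA and GAAA with any 2 bases between them, and for AP-1, TGANTCA, where N is any base.
Cxcl1, chr5:90890995-90891244, plus strand: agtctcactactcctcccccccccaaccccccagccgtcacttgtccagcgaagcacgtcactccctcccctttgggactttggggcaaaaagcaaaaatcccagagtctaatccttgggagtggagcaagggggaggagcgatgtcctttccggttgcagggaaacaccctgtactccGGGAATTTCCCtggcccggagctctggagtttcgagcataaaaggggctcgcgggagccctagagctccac
Cxcl2, chr5:90903649-90903898, plus strand: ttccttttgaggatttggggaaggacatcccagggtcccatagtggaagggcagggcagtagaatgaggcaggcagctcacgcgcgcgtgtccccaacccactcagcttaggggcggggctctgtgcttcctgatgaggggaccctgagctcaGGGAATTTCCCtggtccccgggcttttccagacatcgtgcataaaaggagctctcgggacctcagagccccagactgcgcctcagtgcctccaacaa
Cxcl10, chr5:92348890-92349139, minus strand: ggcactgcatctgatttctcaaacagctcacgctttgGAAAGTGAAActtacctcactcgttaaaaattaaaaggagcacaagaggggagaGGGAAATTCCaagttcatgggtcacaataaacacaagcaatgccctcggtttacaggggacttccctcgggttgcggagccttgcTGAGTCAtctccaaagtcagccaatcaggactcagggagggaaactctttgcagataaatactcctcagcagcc
Cxcl1 and Cxcl2 each held overlapping NF-kB matches on the 2 strands, GGGAATTTCC and GGAATTTCCC, which begin 71 and 70 bases before the start in Cxcl1 and 97 and 96 bases before it in Cxcl2. In Cxcl10 the capitals are, in order, GAAAGTGAAA (IRF), GGGAAATTCC (NF-kB) and TGAGTCA (AP-1). Of the 14 called chemokines and cytokines, 10 had 12 promoters in the table, and the NF-kB letters were in 4 of the 12, those of Csf1, Cxcl1, Cxcl10 and Cxcl2. Ccl2 had no entry. In windows that run from 250 bases before to 50 after the start, the NF-kB letters were in 1.47% of 32851 promoters, those for IRF in 3.44% and those for AP-1 in 7.81%. Of the 598 genes called higher, the 154 that were not called lower in control 4-6 had 152 promoters in the table, for 115 genes. Of these 154, 125 were not called between the control sets, 26 were too low there to be tested and 3 were higher. A gene without a call there can still differ. There the shares were 5.92%, 11.8% and 15.1%. The 444 that were lower in control 4-6 had 462 promoters, for 342 genes, with shares of 0.866%, 3.90% and 6.93%. For the 401 genes called lower, with 391 promoters for 278 genes, they were 2.30%, 2.56% and 6.65%. A match describes letters in a window and not a binding site.

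Of the receptors, Tlr2 is given first because it was picked for differing in this comparison. Tlr2 encodes the Toll-like receptor for bacterial lipoproteins, which also senses injury products. It was at 0.949, 1.36 and 1.40 CPM in model 4-6 and at 7.22, 4.83 and 6.77 CPM in intervene 4-6. The groups did not overlap, and the log2 fold change was 2.35 ± 0.26 (SE, n = 3 and 3). Tlr2 was lower in control 4-6 (mean 0.781 CPM) than in control 1-3 (mean 1.86 CPM), yet each of intervene 4-6 lay above all 15 other libraries. The promoter window of Tlr2 held no match to the 3 patterns as written above, and looser forms of them were not searched.

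Of 16 measured Toll-like receptors and adaptors, 4 were called higher, the picked Tlr2 among them, with a median log2 fold change of 0.49. Cd14, the co-receptor that hands ligands to Toll-like receptors, was at 4.86, 3.85 and 4.62 CPM in model 4-6 and at 11.8, 8.92 and 12.9 CPM in intervene 4-6 (1.34 ± 0.19, adjusted p = 0.00678). Myd88, the adaptor, was at 6.62, 5.48 and 5.07 CPM against 10.6, 8.89 and 9.88 CPM (0.78 ± 0.17, adjusted p = 0.0289). Irak3, a brake on the pathway, was the fourth. The adjusted p of Myd88 was 0.0764 and that of Irak3 0.178 without model replicate 4, and each was also lost without model replicate 5 (0.0863 and 0.0715), model replicate 6 (0.102 and 0.124), intervene replicate 5 (0.0514 and 0.0734) or intervene replicate 6 (0.0606 and 0.135).

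The NF-kB list of subunits and feedback inhibitors had 3 of 16 members called higher, and 16 of 16 fold changes were positive (median 0.51). Bcl3, a nuclear co-regulator, was at 1.17, 1.24 and 1.57 CPM in model 4-6 and at 6.14, 4.16 and 6.49 CPM in intervene 4-6 (2.08 ± 0.25, adjusted p = 0.00436). Nfkb2, the p100 subunit gene, was at 2.43, 2.10 and 2.17 CPM against 4.93, 5.37 and 5.88 CPM (1.27 ± 0.20, adjusted p = 0.0104). Rela, the main activating subunit, moved least, from 18.5, 17.6 and 18.6 CPM to 21.7, 27.1 and 29.1 CPM (0.52 ± 0.13, adjusted p = 0.0494). Nfkb2 lost its call without model replicate 4 (0.0521), and Rela in each of these 6 fits except the one without intervene replicate 4 (0.125 to 0.161).

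Interferon-induced genes had small differences. Of 32 measured members 3 were called higher, 28 had a positive fold change, and the median was 0.57. In intervene 1-3 against model 1-3 the median was 0.53, and no gene of that comparison was called. Gbp2, an interferon-induced GTPase, was at 2.82, 2.70 and 3.57 CPM in model 4-6 and at 15.9, 9.46 and 12.9 CPM in intervene 4-6 (2.08 ± 0.22, adjusted p = 0.00328). Ifit1, which binds viral RNA, was at 3.18, 1.66 and 3.29 CPM against 5.06, 6.78 and 7.59 CPM (1.26 ± 0.28, adjusted p = 0.0310), and its mean was 4.36 CPM in model 1-3 and 6.80 CPM in intervene 1-3. Oasl2, an oligoadenylate synthetase-like gene, was at 3.10, 2.25 and 2.87 CPM against 7.87, 5.50 and 6.97 CPM (1.31 ± 0.22, adjusted p = 0.0125). Leaving out model replicate 4 gave an adjusted p of 0.0538 for Oasl2 and 0.0970 for Ifit1, and Ifit1 was also lost without model replicate 5 or 6 or intervene replicate 5 or 6 (0.0685 to 0.0793).

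Of 24 reactive astrocyte genes 14 were called higher, with a median log2 fold change of 1.25. The summed level was 343 to 434 CPM in model 4-6 and 772 to 1075 CPM in intervene 4-6. Serpina3n, a secreted protease inhibitor of reactive astrocytes, was at 16.8, 17.8 and 17.8 CPM in model 4-6 and at 56.9, 75.7 and 51.3 CPM in intervene 4-6 (1.82 ± 0.15, adjusted p = 0.00166). Gfap, the intermediate filament of astrocytes, was at 194, 150 and 226 CPM against 431, 647 and 547 CPM (1.52 ± 0.19, adjusted p = 0.00483). Intervene 4-6 was near the replicates 1-3 in both genes, and model 4-6 near control 4-6. The means of Gfap were 370, 474 and 588 CPM in control, model and intervene 1-3 and 133 CPM in control 4-6. Serpina3n had means of 40.8, 45.5 and 52.6 CPM in replicates 1-3 of the same groups and 15.8 CPM in control 4-6.

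Other astrocyte genes did not share that order. Lcn2, the iron-binding lipocalin 2, was at 4.11, 3.44 and 5.46 CPM in model 4-6 and at 12.4, 15.4 and 14.3 CPM in intervene 4-6 (1.70 ± 0.19, adjusted p = 0.00400), against means of 2.02, 4 and 7.33 CPM in replicates 1-3. By edgeR in a fit of all 18 libraries Lcn2 was not called (adjusted p = 0.172). Socs3, a feedback inhibitor of cytokine signalling through STAT3, was at 4.08, 3.05 and 5.74 CPM against 13.2, 14.6 and 9.88 CPM (1.56 ± 0.24, adjusted p = 0.0104). Its means lay between 1.42 and 2.5 CPM in the 4 other sets. Ptx3, an acute-phase pattern recognition protein, was at 0.335, 0.119 and 0.350 CPM against 5.54, 3.76 and 3.14 CPM (3.95 ± 0.41, adjusted p = 0.00288). Cd44, a receptor for hyaluronan, was at 1.56, 2.01 and 1.61 CPM against 6.14, 7.68 and 5.84 CPM, with a mean of 6.27 CPM in intervene 1-3. Timp1, a metalloprotease inhibitor named after its values were seen, was at 0.614, 0.356 and 0.839 CPM against 2.77, 1.48 and 2.67 CPM. With model replicate 4 left out, 5 of the 24 members were called, and Socs3 (0.0659) and Timp1 (0.104) were not; without model replicate 5, model replicate 6 or intervene replicate 5 it was 8 members. Timp1 was also lost without model replicate 5 (0.0690) or intervene replicate 6 (0.0581).

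Reactive microglia and phagocyte genes were called higher in 7 of 22 cases (median log2 fold change 0.43). Msr1, a scavenger receptor, was at 0.279, 0.296 and 0.350 CPM in model 4-6 and at 1.82, 1.27 and 1.71 CPM in intervene 4-6 (2.37 ± 0.37, adjusted p = 0.0102). Lgals3, a galectin of phagocytes, was at 1.40, 1.33 and 1.96 CPM against 2.97, 6.04 and 4.99 CPM (1.59 ± 0.30, adjusted p = 0.0205), but its means in model and intervene 1-3 were 5.62 and 5 CPM. Clec7a, the beta-glucan receptor dectin-1, was at 0.447, 0.415 and 0.979 CPM against 3.11, 2.08 and 1.85 CPM (1.95 ± 0.40, adjusted p = 0.0246). Without model replicate 4, 1 of the 22 was called, without model replicate 5 it was 2, and without model replicate 6 or intervene replicate 6 it was 4. Msr1, Lgals3 and Clec7a lost the call without model replicate 4 (0.0594, 0.0995 and 0.115). Lgals3 and Clec7a lost it without model replicate 5 (0.0645 and 0.0751), and Lgals3 without intervene replicate 5 (0.0581). Genes of homeostatic microglia did not go with them: 1 of 12 was called, the purinergic receptor gene Gpr34, which was lower (-0.72 ± 0.18, adjusted p = 0.0425), and the list had a summed level of 317 to 347 CPM in model 4-6 and 314 to 342 CPM in intervene 4-6. Gpr34 lost its call without model replicate 4 or 5 or intervene replicate 5 or 6 (0.0838 to 0.175).

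Among genes of blood-borne cells, S100a9, a calcium-binding alarmin of neutrophils and monocytes, was at 0.614, 0.356 and 0.769 CPM in model 4-6 and at 4.86, 3.69 and 2.53 CPM in intervene 4-6 (2.68 ± 0.36, adjusted p = 0.00671). It was the only 1 of 5 measured neutrophil genes to be called, and the neutrophil genes Camp and Ly6g had 0 counts in all 6 libraries. The summed level of the neutrophil list was 4.56 to 5.86 CPM against 10.8 to 15 CPM. The list of monocytes and other leukocytes had 5 of 16 members called higher, and 2 were lower at an unadjusted p under 0.05. Its summed level was 136 to 170 CPM in model 4-6 and 136 to 174 CPM in intervene 4-6. Lcp1, an actin-bundling protein of leukocytes, was at 9.08, 8.36 and 10.6 CPM against 18, 18.2 and 20.9 CPM (1.03 ± 0.14, adjusted p = 0.00632). Without 1 library at a time the called members of that list numbered 1 without model replicate 4, 5 or 6 or intervene replicate 6, 2 without intervene replicate 5 and 3 without intervene replicate 4.

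**Figure D3:**
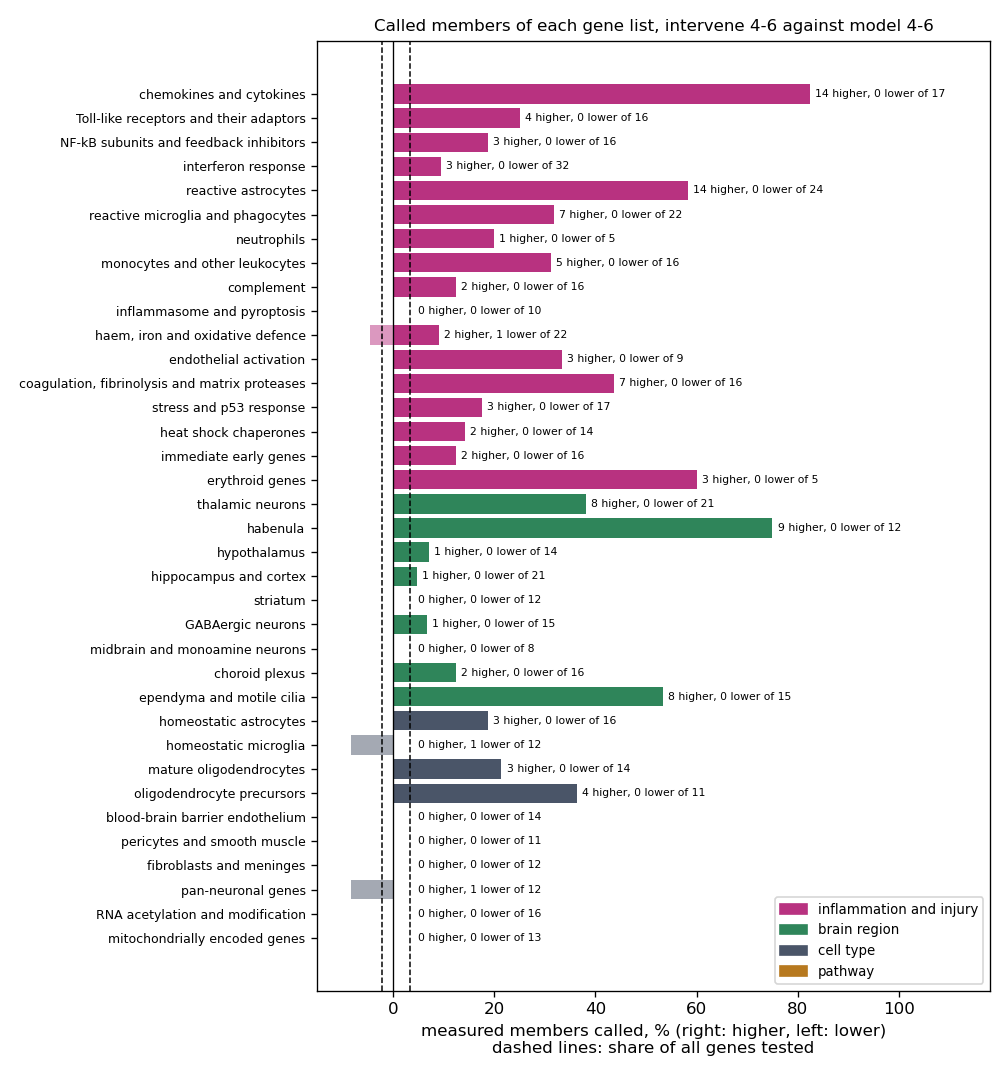
Bars give the share of measured members of each of 36 gene lists that were called higher (right) or lower (left) in intervene 4-6, coloured by class, with the share of all genes tested dashed (3.36% and 2.25%). The longest bars are those of chemokines and cytokines (14 of 17) among injury lists and the habenula (9 of 12) among region lists.

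Genes that answer to blood and tissue damage differed in part. Hmox1, haem oxygenase 1, was at 14.6, 7.41 and 26.5 CPM in model 4-6 and at 58.6, 52.9 and 58.2 CPM in intervene 4-6. The groups did not overlap, but the spread within model 4-6 was wide and Hmox1 was not called (log2 fold change 1.82 ± 0.43, adjusted p = 0.0678); without model replicate 5 or 6 it was (0.0285 and 0.0136). Hmox1 was also called by DESeq2 (0.00572), limma-voom (0.0386), limma on log2(FPKM + 1) (0.0309), the fit with a replicate block (0.0340) and the fits of all 18 libraries (0.00945) or of the 9 numbered 4 to 6 (0.0293). It was not called with library totals (0.0557) or with no filter (0.185). In the 12 other libraries it was between 5.17 and 9.76 CPM. Of 22 genes of haem, iron and oxidative defence, 2 were called higher and 1 lower, and DESeq2 called 6 higher. Hp, which encodes the haemoglobin-binding haptoglobin, was at 0.168, 0.178 and 0.315 CPM against 1.28, 1.74 and 1.5 CPM (2.78 ± 0.41, adjusted p = 0.00821, and 0.0562 without model replicate 4). The 1 lower member was Tfrc, the transferrin receptor for iron uptake, at 80.7, 77.3 and 62.0 CPM against 55.6, 49.4 and 53 CPM (-0.47 ± 0.12, adjusted p = 0.0465). It lost the call without model replicate 4 or 5 or intervene replicate 5 or 6 (0.0909 to 0.191). The higher members of this list numbered 0 without model replicate 4 and 1 without intervene replicate 5.

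Haemoglobin transcripts, a sign of blood in the tissue, were also higher, and 3 of 5 measured erythroid genes were called. Hbb-bs was at 94.7, 82.1 and 119 CPM in model 4-6 and at 261, 269 and 183 CPM in intervene 4-6 (1.28 ± 0.18, adjusted p = 0.00813, and 0.0570 without model replicate 4). Reads of near-identical globin genes can be divided between the copies. The summed erythroid level was 142 to 185 CPM against 269 to 411 CPM. Outside these libraries Hbb-bs averaged 160 CPM in control 1-3 and 86.4 CPM in control 4-6, and all 3 called genes were lower in control 4-6; without model replicate 4, 0 erythroid genes were called. The part that blood in the tissue has in the leukocyte and haem values above was not tested. Mitochondrially encoded genes took 12.3 to 17.7% of counts in intervene 4-6 and 9.44 to 12% in model 4-6, and their part was not tested either.

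Of the vessel genes, Icam1, an adhesion molecule for leukocytes, was at 3.74, 2.49 and 3.92 CPM in model 4-6 and at 9.59, 6.88 and 7.38 CPM in intervene 4-6 (1.24 ± 0.23, adjusted p = 0.0183, and 0.0706 without model replicate 4). Vcam1, another adhesion molecule, was at 19.8, 20.7 and 19.3 CPM against 29.8, 36.0 and 24.4 CPM (0.60 ± 0.15, adjusted p = 0.0438), and lost its call without model replicate 4, 5 or 6 or intervene replicate 5 (0.0933 to 0.154). With Selp, which had 4 counts in model 4-6, they made 3 of 9 endothelial activation genes called higher, and without model replicate 4, 5 or 6 it was 0, 1 and 1. Of the 9, 1 was lower at an unadjusted p under 0.05 and 1 by DESeq2. Of 14 blood-brain barrier genes 0 were called by edgeR (1 higher and 4 lower at an unadjusted p under 0.05, and 2 lower by DESeq2). Of 16 coagulation, fibrinolysis and matrix protease genes 7 were called higher, with a median log2 fold change of 0.82. Thbs1, the platelet and matrix protein thrombospondin 1, was at 1.51, 1.07 and 0.909 CPM against 2.77, 4.63 and 2.94 CPM (1.56 ± 0.31, adjusted p = 0.0225). That list had 0 called members without model replicate 4, and Thbs1 had an adjusted p of 0.0637; without model replicate 5 or intervene replicate 5 it had 1, and without model replicate 6 it had 2. Thbs1 was also lost without model replicate 5 or 6 or intervene replicate 5 (0.0693, 0.0778 and 0.0662).

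The stress and p53 response list had 3 of 17 members called higher, Atf3, Ecel1 and Gadd45g, all lower in control 4-6. Its median log2 fold change was 0.015, with 9 of 17 positive, and 1 member was called without model replicate 4. Atf3, a factor induced by cell injury, was at 1.28, 1.13 and 1.89 CPM in model 4-6 and at 6.89, 9.19 and 4.65 CPM in intervene 4-6 (2.28 ± 0.30, adjusted p = 0.00593). Jun and Fos, subunits of AP-1, were the 2 of 16 immediate early genes called, while 1 was lower at an unadjusted p under 0.05 and 1 by DESeq2. Jun was at 39.8, 41.8 and 39.5 CPM against 59.5, 63.0 and 60.1 CPM (0.60 ± 0.09, adjusted p = 0.0106), and Fos at 13.6, 17.0 and 20.6 CPM against 37.6, 42.2 and 28 CPM (1.08 ± 0.19, adjusted p = 0.0170). The adjusted p was 0.0673 for Jun and 0.0736 for Fos without model replicate 4, and without model replicate 5 it was 0.0529 for Fos. In a fit of all 18 libraries it was 0.0933 for Jun and 0.0898 for Fos. The complement list had 2 of 16 members called, C3 and C4b, both lower in control 4-6. C3, the central complement component, was at 1.06, 0.859 and 1.33 CPM against 3.92, 6.04 and 3.49 CPM (2.06 ± 0.30, adjusted p = 0.00766, and 0.0504 without model replicate 4), with a mean of 6.63 CPM in model 1-3. C4b lost its call in each fit that left out 1 library (0.0559 to 0.183). Of 10 inflammasome and pyroptosis genes 0 were called by edgeR, DESeq2 or limma-voom, and 3 were higher at an unadjusted p under 0.05.

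Some region genes had fold changes as large as those of the chemokines, but the region lists differed. The median log2 fold change was 0.93 over all region members, 2.99 for the habenula and 2.98 for the choroid plexus. It was 0.08 for GABAergic neurons, with 1 of 15 members called, and -0.35 for the striatum, with 0 of 12. Midbrain and monoamine neurons had a median of 0.43 and 0 of 8 called. Shox2, a homeobox factor of thalamic neurons, was at 0.223, 0.770 and 0.210 CPM in model 4-6 and at 19.4, 11.5 and 15.8 CPM in intervene 4-6. The groups did not overlap, and the log2 fold change was 5.25 ± 0.43 (SE, n = 3 and 3). Among saline libraries Shox2 averaged 25.6 CPM in control 1-3 and 0.0656 CPM in control 4-6, so saline libraries alone spanned the range of this gene. The means in model 1-3 and intervene 1-3 were 21.4 and 17.6 CPM.

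Of 21 measured thalamic genes 8 were called higher. The median log2 fold change was 1.22, and the same genes had a median of -2.34 in control 4-6 against control 1-3 and of -0.16 in intervene 1-3 against model 1-3. Tcf7l2, whose library values are given above, had a log2 fold change of 2.34 ± 0.28 (adjusted p = 0.00735, and 0.0562 without model replicate 4). Ntng1, which encodes netrin-G1 of thalamic axons, was at 9.997, 12.7 and 11.1 CPM in model 4-6 and at 33.1, 30.3 and 29.7 CPM in intervene 4-6 (1.47 ± 0.13, adjusted p = 0.00219). Gbx2, a factor that patterns the thalamus, was at 1.06, 1.72 and 0.560 CPM against 8.37, 6.51 and 11.5 CPM (2.97 ± 0.37, adjusted p = 0.00593). Only 3 of the 21 genes were called without model replicate 4.

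Habenular genes were higher too. Of 12 measured members 9 were called higher (median log2 fold change 2.99), and 11 of the 12 were lower in control 4-6 than in control 1-3 (median -2.86). By limma-voom 3 of the 12 were called, and Chrna3, Irx2, Gpr151 and Chrnb4 were not (0.0609, 0.0800, 0.0882 and 0.0966). Irx1, an iroquois homeobox factor, was at 0.782, 0.830 and 0.350 CPM in model 4-6 and at 7.49, 7.58 and 4.99 CPM in intervene 4-6 (3.33 ± 0.33, adjusted p = 0.00249). Tac2, the neurokinin B gene, was at 20.6, 11 and 11.1 CPM against 45.3, 65.0 and 45.9 CPM (1.87 ± 0.27, adjusted p = 0.0145). Chrna3, a nicotinic receptor subunit, was at 0.838, 0.948 and 0.490 CPM against 8.30, 15 and 3.83 CPM (3.56 ± 0.53, adjusted p = 0.0153). It was highest in intervene replicate 5, and lost its call without model replicate 4, 5 or 6 (0.0911, 0.0541 and 0.0559). Without those libraries 2, 4 and 4 habenular genes were called, and without intervene replicate 5 it was 6. Hypothalamic genes had 1 of 14 members called higher (4 by DESeq2) and 1 lower at an unadjusted p under 0.05. Fold changes were positive in 12, and the median log2 fold change was 1.98. The summed level of hypothalamic genes was 79.8 to 155 CPM in model 4-6 and 122 to 1595 CPM in intervene 4-6. Of 16 members tested between the control sets, 12 were lower in control 4-6. Avp, the vasopressin gene, was not called (4.43 ± 1.58, adjusted p = 0.205), and without intervene replicate 4 its log2 fold change was 2.44.

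Choroid plexus genes set the 3 intervene libraries apart from each other. Ttr, transthyretin, which the choroid plexus makes in large amounts, was at 92.7, 40.4 and 48.1 CPM in model 4-6 and at 101, 3946 and 3405 CPM in intervene 4-6. Intervene replicate 4 was thus near the model libraries, and Ttr was not called (log2 fold change 5.37 ± 1.53, adjusted p = 0.134; without intervene replicate 4, 0.00283; by DESeq2, 0.000416). Of 16 choroid plexus genes 2 were called by edgeR, 13 by DESeq2 and 1 by limma-voom, and 14 were higher at an unadjusted p under 0.05. By edgeR without intervene replicate 4 it was 16, with intervene replicate 5 left out 1, and without model replicate 4, 5 or 6 or intervene replicate 6 it was 0. The called genes Cldn2, a tight-junction claudin, and Prlr, the prolactin receptor, were at 0.945, 6.51 and 4.58 CPM and at 7.83, 12.7 and 8.89 CPM in intervene 4-6. In model 4-6 they were at 0.335, 0.296 and 0.140 CPM and at 4.58, 5.04 and 2.45 CPM.

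Most ependymal and cilia genes, by contrast, were higher in each intervene library. Of 15, 8 were called higher (13 by DESeq2), beside 3.36% of all genes tested. In 14 of 15 all 3 intervene libraries lay above all 3 model libraries, as in 14.6% of all genes tested. Foxj1, the master factor of motile cilia, was at 10.3, 16.3 and 16.7 CPM in model 4-6 and at 29.3, 45.2 and 31.5 CPM in intervene 4-6 (1.30 ± 0.22, adjusted p = 0.0189, and 0.0538 without model replicate 4). Without model replicate 4, 0 ependymal genes were called, without model replicate 6 it was 2, without intervene replicate 5 it was 4, and without model replicate 5 it was 5. In control 4-6, 13 of 14 tested members were lower than in control 1-3.

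Cortical and hippocampal genes had fold changes of both signs, 7 of 21 positive, with a list median of -0.19. The 2 genes described next are among the negative ones. Slc17a7, which loads glutamate into the synaptic vesicles of cortical and hippocampal neurons, was at 1254, 1186 and 1090 CPM in model 4-6 and at 512, 727 and 1003 CPM in intervene 4-6 (-0.65 ± 0.21, adjusted p = 0.105). Tbr1, a cortical transcription factor, was at 125, 106 and 128 CPM against 58.9, 60.2 and 96.7 CPM (-0.73 ± 0.19, adjusted p = 0.0515). By edgeR 0 of 21 members were called lower, with 5 at an unadjusted p under 0.05, 4 by DESeq2 and 1 by limma-voom. In both genes intervene replicate 6 was nearest to the model libraries, and without it the adjusted p was 0.0233 for Slc17a7 and 0.00644 for Tbr1. The 1 of 21 members called was higher: Prox1, a factor of dentate granule cells that thalamic neurons also express, at 8.04, 9.75 and 9.83 CPM against 24.0, 30.2 and 25.9 CPM (1.54 ± 0.14, adjusted p = 0.00249). Prox1 was not called in a fit of all 18 libraries (0.0688).

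**Figure D4:**
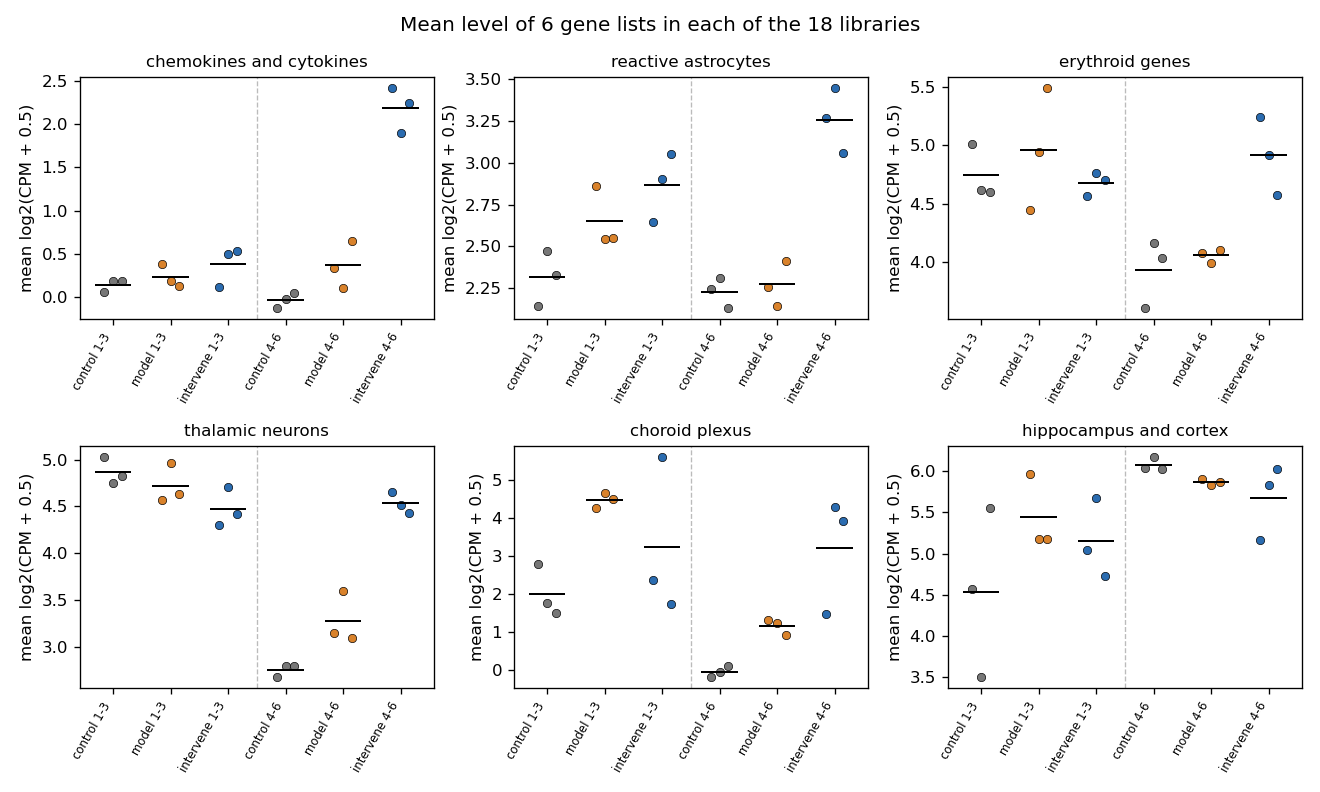
Mean log2(CPM + 0.5) over the measured members of 6 lists, 1 point per library with a bar at the mean of each 3. Chemokines and cytokines stand at 1.90 to 2.42 in intervene 4-6 and at 0.653 or less elsewhere, while thalamic genes in intervene 4-6 (4.43 to 4.65) reach the range of replicates 1-3 and choroid plexus splits intervene replicate 4 (1.47) from 5 and 6.

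Other glial lists had fewer members called. Of 16 homeostatic astrocyte genes 3 were called higher (7 by DESeq2), among them Aqp4, the water channel of astrocyte endfeet, at 74.7, 76.6 and 78.3 CPM in model 4-6 and 138, 163 and 112 CPM in intervene 4-6 (0.85 ± 0.14, adjusted p = 0.0108, and 0.0652 without model replicate 4). The list's median log2 fold change was 0.22, beside 1.25 for reactive astrocytes; the difference between these lists was not tested. The count was 0 of the 16 without model replicate 4. At an unadjusted p under 0.05, 1 of the 16 was lower. Of 14 genes of mature oligodendrocytes 3 were called higher (median 0.46, 6 by DESeq2, 0 without model replicate 4 or 5 or intervene replicate 5), and of 11 genes of their precursors 4 (median 0.42, 1 without model replicate 4 or intervene replicate 5). Sox10, a factor of the oligodendrocyte lineage, was at 37.9, 51.0 and 50.6 CPM against 79.9, 94.0 and 103 CPM (0.99 ± 0.14, adjusted p = 0.00735). Mbp, myelin basic protein, was at 4622, 4285 and 6525 CPM against 8213, 8780 and 8513 CPM (0.73 ± 0.17, adjusted p = 0.0371) and lost its call without model replicate 4 or 5 or intervene replicate 5 or 6 (0.0661 to 0.168). Both were lower in control 4-6 than in control 1-3.

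Genes called lower had smaller fold changes and belonged mostly to the genes that were higher in control 4-6. The 12 largest under the naming rule leave out genes under 1 CPM and symbols of predicted genes, clones, pseudogenes and ribosomal RNA. The 2 genes called lower but not tested between the control sets (median log2 fold change -3.43) are not among the 12. Of the 12, 11 were higher in control 4-6 than in control 1-3. The 12th, Lars2, was the only 1 of them below all 15 other libraries. The 15 include control 1-3, where the 11 were lower than in control 4-6, so lying below all 15 was harder for the 11. Lars2 encodes the mitochondrial leucyl-tRNA synthetase, and its reads can be shared with ribosomal RNA. It was at 404, 255 and 488 CPM in model 4-6 and at 109, 95.9 and 98.3 CPM in intervene 4-6 (-1.91 ± 0.21, adjusted p = 0.00464). Myl4, a myosin light chain, was at 54.3, 33.0 and 45.8 CPM against 13.1, 9.86 and 20.2 CPM (-1.62 ± 0.28, adjusted p = 0.0213), with means of 48.6 CPM in control 4-6 and 5.12 CPM in control 1-3. Prss12, a neuronal serine protease, was at 17.5, 27.3 and 17.8 CPM against 9.59, 4.86 and 7.79 CPM (-1.49 ± 0.27, adjusted p = 0.0205). Col6a1, a collagen VI chain, was at 9.08, 18.4 and 14.3 CPM against 4.79, 5.77 and 4.61 CPM (-1.45 ± 0.25, adjusted p = 0.0155). Myl4 lost its call without model replicate 4 or 6 or intervene replicate 4 (0.0896, 0.0700 and 0.0521), and Prss12 without model replicate 4 or intervene replicate 6 (0.0628 and 0.0579). The other 8 were Gpr21, Mcmdc2, Adamts13, Rgsl1, Mybpc1, Trpv6, Cabyr and Xdh.

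Under the same naming rule, the 12 largest fold changes among genes called higher mixed both classes. Saa3, Cxcl2, Il1rn, Cxcl10, Ptx3 and Serpinf2 are genes of inflammation, the acute phase or protease inhibition, and none of the 6 was called lower in control 4-6, where 5 of them were too low to be tested; Cxcl10 was tested and not called. Shox2, Irx2, Chrnb4, Dsp, Iyd and Pla2g2f were all lower in control 4-6. Dsp, the desmosome protein desmoplakin, was at 0.112, 0.178 and 0.0699 CPM in model 4-6 and at 1.01, 11 and 6.56 CPM in intervene 4-6, and averaged 10.4 CPM in control 1-3 and 0.0656 CPM in control 4-6. Dsp lost its call by limma-voom (0.241), with no filter (0.108), and without model replicate 4, 5 or 6 (0.172, 0.113 and 0.116) or intervene replicate 6 (0.0812). Irx2, Chrnb4 and Iyd were not called by limma-voom either (0.0800, 0.0966 and 0.0948), and they and Pla2g2f each lost the call without 1 or more single libraries. Without model replicate 5 it was 0.0650 for Irx2, 0.0548 for Iyd and 0.0626 for Pla2g2f, and without model replicate 6 it was 0.129 for Chrnb4. Serpinf2, the plasmin inhibitor alpha-2-antiplasmin, was at 0.0559, 0.0593 and 0.210 CPM against 1.82, 2.72 and 1.95 CPM. Saa3, an acute-phase apolipoprotein, had 2 counts in the 3 model libraries and was at 2.09, 0.805 and 0.957 CPM in intervene 4-6.

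In replicates 1-3 edgeR called 0 of 18031 genes in either direction between the same groups, with 498 at an unadjusted p under 0.05, and DESeq2 called 1 higher and 1 lower. The difference between the sets was tested itself as an interaction over 19001 genes, and 8 genes (0.0421%) had a larger intervene minus model difference in replicates 4-6, none a smaller one (2891 at an unadjusted p under 0.05; DESeq2 337 and 167). They were Shox2, Ptx3, Irx1, Tlr2, A2m, Zfp36l1, Ntng1 and Ccdc190. The interaction reuses the contrast on which the libraries, Shox2 and Tlr2 were chosen, so this list is a description.

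Because model 4-6 was low in thalamic genes, intervene 4-6 was also set against model 1-3, a comparison chosen after the data were seen; it crosses the 2 sets. There 19 genes were called higher and 4 lower of 17931, and the thalamic list had 0 of 21 members called and a median log2 fold change of -0.10. Shox2 was at -0.47 and Tcf7l2 at -1.21. Other region lists differed more. Their medians were 2.11 for the striatum, 0.73 for GABAergic neurons, 0.58 for the hypothalamus and 0.39 for hippocampus and cortex. Those of midbrain and monoamine neurons, choroid plexus, habenula and ependyma were -1.80, -0.88, -0.62 and -0.155. The comparison is thus not matched in region, and the part of these differences in the calls below was not tested. Of the chemokines and cytokines 6 were called, 5 chemokines and the antagonist Il1rn: Ccl2 (log2 fold change 5.90 ± 0.43), Cxcl1 (5.47 ± 0.57), Ccl4 (5.07 ± 0.57), Il1rn (4.69 ± 0.55), Ccl12 (4.50 ± 0.34) and Ccl7 (3.55 ± 0.43). Hmox1 (3.18 ± 0.14, adjusted p = 1.1e-05), Ptx3 (2.92 ± 0.33), Socs3 (2.66 ± 0.26) and Gbp2 (1.57 ± 0.23) were the other 4 of the 10 called members of the inflammation and injury lists. Tlr2 was at 1.44 and was not called. Ccl2 and Tlr2 were picked for differing in intervene 4-6 against model 4-6. The same intervene libraries enter here, so the values of both are a description. For Lgals3, C3, C4b, Cp, Mmp14, Hba-a1 and Hbb-bt the sign turned, with log2 fold changes of -0.27, -0.56, -0.79, -0.32, -0.28, -0.43 and -0.16. Region genes called there were Six3, a factor of GABAergic neurons (1.42 ± 0.19), and Gpr6, a receptor of striatal neurons (3.02 ± 0.39).

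Nat10, which encodes the known target of remodelin, was at 15.9, 17.0 and 19.2 CPM in model 4-6 and at 17.5, 16.8 and 16.1 CPM in intervene 4-6. The groups overlapped, and the log2 fold change was -0.04 ± 0.12 (adjusted p = 0.877). Of 16 genes of RNA acetylation and modification 0 were called by edgeR, DESeq2 or limma-voom (1 higher at an unadjusted p under 0.05), with a median log2 fold change of 0.00. Protein and enzyme activity were not measured.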

How the data were processed

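RNA from mouse thalamus (polyA-selected, TRIzol extraction, per the labels' protocols) was measured in 18 libraries. Raw counts and FPKM of 50559 genes were deposited; reads were aligned with HISAT2 and counted with featureCounts on GRCm39, per the submitters' processing notes, while versions and strand setting are not stated there. The deposited FPKM equal count over length and column total for 18117 of 18117 genes counted in every library (relative tolerance 1e-06), so FPKM were only an alternative. Reads shared by near-identical or overlapping genes can be divided between them.

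Counts of the 6 libraries were filtered with filterByExpr (minimum count 10), scaled by TMM and tested with edgeR 4.0.16 in R 4.3.3 (quasi-likelihood F test, robust, no covariate), with Benjamini-Hochberg adjustment over 17814 genes and a threshold of 0.05. Fold changes come from this fit, and CPM from the TMM scale of all 18 libraries. Libraries held 28481225 to 118461420 counts. The labels number separate samples but do not say that each is an animal, so the spread that p-values rest on may be technical. Pairs of libraries within model 4-6 or intervene 4-6 had a chi-square per degree of freedom of 21.9 or more (genes with 20 or more counts per pair), so none repeated another.

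On simulated counts with 200 of 17814 genes changed (10 simulations), 73.4%, 96.3% and 98.8% of changes of 2, 4 and 8-fold were recovered and 9.51% of calls were false, more than the nominal share. Same-numbered model and intervene libraries deviated together with correlations of 0.0873, 0.102 and 0.0882, which does not pair them.

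The libraries, the 36 gene lists (586 genes, 538 tested) and the tests were chosen with earlier results of these data known. Genes were named by a rule: Ccl2, Tlr2, Shox2 and Nat10, the 12 largest called fold changes in each direction, the 6 members of lowest p in a list at most, and Tcf7l2, Slc17a7 and Ttr. The 12 needed a mean of at least 1 CPM in the higher group. Predicted-gene, clone, pseudogene and ribosomal RNA symbols were left out of the 12. Not every such name is printed. Alternatives were DESeq2 1.42.0, limma 3.58.1 (voom, and log2(FPKM + 1)), other scalings, filters and fits, a replicate block, and each library left out. Promoters are RefSeq entries on GRCm38.p6, used for sequence only.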

Additional observations from a re-analysis of the deposited data

Results flagged for a closer look

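For 8 genes the difference between intervene and model was larger in replicates 4-6 than in replicates 1-3, by an interaction test in edgeR over 19001 genes. The test reuses the contrast and the division of replicates on which the libraries were chosen, and Shox2 and Tlr2 were picked for differing there, so the values are a description and no p is given for these 2. Shox2 differed by 5.53 ± 0.63 on the log2 scale, from a log2 fold change of -0.28 in replicates 1-3 to 5.25 in replicates 4-6. Irx1 differed by 3.25 ± 0.47 and Ntng1 by 1.62 ± 0.19 (adjusted p = 0.0311 and 0.0163), and these 3 genes are in the thalamic or habenular lists. Ptx3 differed by 4.45 ± 0.63 (adjusted p = 0.0311) and Tlr2 by 2.30 ± 0.33, from -0.51 and 0.04 in replicates 1-3. A2m, the protease inhibitor alpha-2-macroglobulin, differed by 2.20 ± 0.32, Zfp36l1, an mRNA decay factor, by 1.63 ± 0.24, and Ccdc190 by 1.02 ± 0.15, each with an adjusted p of 0.0311. Of the 8, Shox2, Irx1, Ntng1, A2m, Tlr2 and Ccdc190 were lower in control 4-6 than in control 1-3, Zfp36l1 was not called there and Ptx3 was not tested there. The count rested on few libraries: without model replicate 4 it was 0, and without intervene replicate 2 it was 354.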

How the results depend on the processing

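With all libraries, 598 genes higher and 401 lower became 391 higher with library totals, 1157 and 799 with DESeq2, 251 higher with limma on log2(FPKM + 1), 1528 and 978 with no filter, 988 and 727 in a fit of the 9 libraries numbered 4 to 6, and 19 and 4 against model 1-3, which was chosen after seeing the data. With 1 library left out they ranged from 66 to 952 and from 34 to 478. Inflammation and injury members called higher (75) ranged from 16 to 76 with 1 library left out and were 10 against model 1-3; the single lower member was 3 with DESeq2 or no filter, 2 with the replicate block, 0 with library totals, limma-voom, limma on FPKM, the fit of all 18 libraries or model 1-3, and 0 to 1 with 1 library left out. Region members called higher (30) were 56 with DESeq2, 16 with FPKM, 50 with no filter, 47 with the replicate block, 2 against model 1-3 and 7 to 52 with 1 library left out; the lower ones (0) were 3 with library totals, 5 with DESeq2, 1 with limma-voom, 2 with FPKM or the 9 libraries, 6 with no filter, 4 with the replicate block and 0 to 3 with 1 library left out.

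The share of higher genes that were lower in control 4-6 (74.2%) was 68.1% with FPKM, 66.8% with no filter, 5.26% against model 1-3 and 60.4 to 81.7% with 1 library left out. The share of lower genes that were higher in control 4-6 (89.5%) was 81.6% with DESeq2, 85.5% with FPKM, 72.2% with no filter, 85.6% with the replicate block, 80.1% with all 18 libraries, 83.6% with the 9, 0% against model 1-3 and 79.9 to 92.7% with 1 library left out. The 8 interaction genes were 4 with library totals, 337 and 167 lower with DESeq2, 1 with limma-voom, 0 with FPKM, 100 and 25 with no filter, 5 with the replicate block, 51 and 14 with all 18 libraries, and 0 to 354 and 0 to 54 with 1 library left out. Intervene 1-3 against model 1-3 had 1 gene higher and 1 lower with DESeq2 and 0 to 50 lower with 1 library left out. Control 4-6 against 1-3 (3024 higher and 3372 lower) had 1700 to 2930 higher and 1984 to 3215 lower with 1 library left out, and 2766 to 3494 and 3101 to 3637 under the alternatives with all libraries.

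The replicate block called 845 genes higher and 535 lower; same-numbered libraries correlated at 0.0873, 0.102 and 0.0882, not every library correlated best with its own number, and the numbers are taken as names only. Of 97 named genes called, 52 were called under each alternative with all libraries other than model 1-3, and 28 with each library left out in turn. In the fit of all 18 libraries 23 named genes lost the call and 2 gained it. Lcn2 (0.172), Foxj1 (0.102), Jun (0.0933), Fos (0.0898), Clec7a (0.0835), Prox1 (0.0688) and Lgals3 (0.0533) were among those that lost it. Of the named genes, the sign turned without model replicate 6 for Nat10 (0.0319, and -0.106 to 0.0319 over all libraries left out), and against model 1-3 for Nat10 (0.12), Lgals3 (-0.27), C3 (-0.56), C4b (-0.79), Cp (-0.32), Mmp14 (-0.28), Hba-a1 (-0.43), Hbb-bt (-0.16), Shox2 (-0.47), Tcf7l2 (-1.21), Ntng1 (-0.47), Lef1 (-0.57), Irx1 (-0.0798), Irx2 (-1.42), Chrna3 (-0.80), Chrnb4 (-0.77), Gpr151 (-0.78), Hdc (-0.34), Prox1 (-0.58), Tbr1 (0.67), Slc17a7 (0.39), Cldn2 (-0.88), Prlr (-0.92), Ttr (-0.80), Foxj1 (-0.0775), Dsp (-1.54), Pla2g2f (-0.19), Myl4 (0.82), Adamts13 (0.17), Aqp4 (-0.0467) and Mbp (-0.056). The cause was not tested. Genes with a few counts in model 4-6, such as Cxcl2 and Saa3, are limited by depth.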

Other observations

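Of the 598 genes higher in intervene 4-6, 102 (17.1%) were above all 15 other libraries in each of the 3 libraries, against 334 (1.87%) of all genes tested. Among the 444 that were lower in control 4-6 this held for 24 (5.41%), and among the 125 not called between the control sets for 61 (48.8%). Inflammation and injury members contributed 56 such genes over all 273 tested, called or not, and region members 0 of 134. The 15 other libraries include the saline libraries in which genes lower in control 4-6 were higher. Exceeding all 15 was therefore harder for such genes. Of members tested between the control sets, 81 of 139 region members and 44 of 255 inflammation and injury members were lower in control 4-6. The gaps between 5.41% and 48.8% and between 56 and 0 are thus in part built into the sorting, and how large a part was not tested. These shares also use the contrast on which the libraries were chosen and are a description.

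Conversely, of 3244 tested genes that were lower in control 4-6, 444 (13.7%) were higher and 0 lower in intervene 4-6, with a median log2 fold change of 0.37. Of 2985 that were higher in control 4-6, 359 (12%) were lower and 3 higher, with a median of -0.27. The 3 were Il1b, Plaur, the urokinase receptor gene, and Ch25h, the cholesterol 25-hydroxylase gene.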
